A study of Mus musculus with 384 samples.

Results

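The upper hair follicle comprises the infundibulum, which opens onto the skin surface, and the isthmus and junctional zone below it, where the duct of the sebaceous gland joins. Its genes are represented here by 10 genes, Krt79, Cst6, Defb6, Gata6, Lrig1, Plet1, Lgr6, Klk10, Sostdc1 and Aqp3, taken by symbol from the table of expression values. All 10 were found once each among the 46517 genes of the table. They were described in single cells sorted from mouse back skin as hair follicle stem cells, across plates, Nfi genotypes, Sca-1 gates and the expression of Cd34, the bulge stem cell marker. The transcription factors of the nuclear factor I family (NFI) bind DNA as dimers, and the study compared cells in which Nfix and Nfib are both conditionally deleted with cells that keep an intact Nfib allele.

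The dKO mice were NFIBfl/fl and the cKO mice NFIBfl/+; mice of both groups also carried Sox9-CreER, NFIXfl/fl and the reporter R26-YFPfl/fl. Both groups thus have 2 floxed Nfix alleles and differ in the second Nfib allele. The mice were at postnatal day 70, in the labels' account all male. Sox9-CreER is an inducible recombinase driven from the gene of a follicle stem cell factor, and YFP marks cells in which the reporter locus recombined. Recombination of the Nfi alleles was not checked here, and no wild-type cells are part of the comparison. Cells were sorted as DAPI-negative, integrin α6-positive and YFP-positive, and were either positive or negative for Sca-1, the surface protein encoded by Ly6a, which marks the epidermis and the uppermost follicle and is low in the bulge.

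Of 384 cells, 378 had at least 1000 genes at 1 TPM, the length-normalised share of a gene among transcripts, or more, and these were kept. The Sca-1-positive gate held 19 cells of dKO plate 2 and 22 cells of cKO plate 3. The Sca-1-negative gate held 93 and 61 cells of dKO plates 1 and 2 and 71, 47 and 65 cells of cKO plates 1, 2 and 3. The median number of genes per cell was between 4770 and 5199 in all 7 combinations of plate and gate; read depth is unknown, since TPM does not keep it. The labels name no animal, so which plates share one is not known and plates were not taken as replicates; differences are described by rules of size, without tests, beside the values of every plate.

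Plates stood apart in a way the labels do not give. Xist RNA was found on dKO plate 1 (mean 44.5 TPM) and on cKO plates 1 and 2 (means 51.4 and 59.8 TPM). It averaged at most 0.102 TPM on dKO plate 2 and cKO plate 3, where summed Y-linked RNA reached 34.1 and 41.7 TPM in Sca-1-negative cells. Genotype comparisons are therefore also given within the plates with Xist and within the plates with Y-linked RNA. The Sca-1-positive cells occupied well rows A and B of their plates, so gate and well row cannot be told apart. Nfix averaged 29.6 and 32.3 TPM on the dKO plates and 46.7, 48 and 43.7 TPM on the cKO plates in Sca-1-negative cells, and Nfib averaged 58.4 and 90.4 TPM on the dKO plates and 80.4, 72.8 and 67.1 TPM on the cKO plates. A sum over a gene's transcripts cannot tell those with the floxed exon from those without.

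In mouse skin the upper follicle is maintained largely apart from the bulge. Krt79-positive cells line the canal of the infundibulum and the sebaceous duct, Lrig1 marks stem cells of the junctional zone, Plet1 those of the upper isthmus and Lgr6 those of the central isthmus, while Cd34 and Krt15 mark the bulge below. Gata6, a zinc finger transcription factor, marks cells of the sebaceous duct and upper follicle.

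The bases upstream of 3 of the genes are shown because they carry the clearest patterns below: Lgr6 was the gene that differed between the Nfi genotypes, and Krt79 and Defb6 were the pair detected together most strongly. Each run gives the 250 bases before the RefSeq gene start, 5′ to 3′ along the gene's strand, in the GRCm38.p6 build: chr1:135105277-135105526 on the minus strand for Lgr6, chr15:101940325-101940574 on the minus strand for Krt79 and chr8:19225228-19225477 on the plus strand for Defb6. Capitals mark matches to TTGGC, the core of the NFI motif (GCCAA on the other strand), or to GATAA, a core GATA factor motif (TTATC on the other strand).
Lgr6: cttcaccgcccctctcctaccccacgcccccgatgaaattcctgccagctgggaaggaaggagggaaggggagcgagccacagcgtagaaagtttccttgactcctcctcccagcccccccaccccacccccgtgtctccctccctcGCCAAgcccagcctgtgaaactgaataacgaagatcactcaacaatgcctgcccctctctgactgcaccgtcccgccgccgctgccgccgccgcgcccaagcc
Krt79: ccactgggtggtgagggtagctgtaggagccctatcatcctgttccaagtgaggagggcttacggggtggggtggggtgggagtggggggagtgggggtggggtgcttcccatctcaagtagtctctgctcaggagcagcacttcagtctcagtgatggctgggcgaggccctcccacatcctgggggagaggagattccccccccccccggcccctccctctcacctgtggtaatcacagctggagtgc
Defb6: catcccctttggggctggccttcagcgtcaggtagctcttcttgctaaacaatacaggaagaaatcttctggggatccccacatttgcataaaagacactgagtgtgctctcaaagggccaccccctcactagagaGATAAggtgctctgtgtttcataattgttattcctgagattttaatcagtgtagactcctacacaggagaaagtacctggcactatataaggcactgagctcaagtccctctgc

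RefSeq promoters were matched for 7 of the 10 genes; Cst6, Gata6 and Sostdc1 had no entry. The TTGGC core or its reverse complement lay in 4 of the 7, those of Lgr6, Lrig1, Plet1 and Aqp3, and in 41.5% of 32851 mouse promoter windows of the same length. GATAA or its reverse complement lay in 1 of the 7, that of Defb6, and in 22.6% of all windows. The Krt79 run holds neither motif. These matches describe letters and do not show binding, and no match says nothing of a factor. In the GENCODE annotation of GRCm38, Lgr6 spans chr1:134983301-135105276 on the minus strand, Krt79 chr15:101929332-101940324 on the minus strand, Defb6 chr8:19225478-19228209 on the plus strand, Cst6 chr19:5344705-5349574 on the minus strand and Lrig1 chr6:94604529-94700158 on the minus strand.

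The genes differed widely in level and in how many cells carried them. In Sca-1-negative cells, the water and glycerol channel gene Aqp3 had plate means of 177.2 to 276 TPM and was positive (at 10 TPM or more) in 90.2% of 337 cells (exact 95% interval 86.5% to 93.2%, which covers counting error only, as do all intervals here). Sostdc1, a secreted antagonist of BMP and WNT signals, had plate means of 91.1 to 180 TPM and was positive in 84.9% of cells (80.6% to 88.5%). Lrig1, which restrains EGF receptor signalling, had plate means of 40.3 to 68.2 TPM and was positive in 67.4% (62.1% to 72.3%). These 3 genes were thus present in most Sca-1-negative cells, of which 27% were positive for Cd34. Among the Cd34-positive cells, Aqp3 was positive in 94.5%, Sostdc1 in 73.6% and Lrig1 in 28.6%.

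The other genes were carried by a minority of cells. Krt79, a keratin of the infundibulum, was positive in 65 of 337 Sca-1-negative cells, or 19.3% (15.2% to 23.9%), with a median of 138.6 TPM among those cells and a highest cell at 1944 TPM. Defb6, which encodes a beta-defensin, an antimicrobial peptide, was positive in 19.6% (15.5% to 24.2%), with a highest cell at 3878 TPM. Thus the plate means of both genes, 23.9 to 171.1 TPM for Krt79 and 31.6 to 170 TPM for Defb6, rested on few cells: the 10 highest of 337 cells gave 57.1% of all Krt79 TPM and 65.5% of all Defb6 TPM. Defb6 has a short RNA of 323 exonic bases, a length at which few reads give a high TPM.

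Cst6, which encodes the cysteine protease inhibitor cystatin M/E, was positive in 8.61% of Sca-1-negative cells (5.84% to 12.1%), and 82.8% of its TPM came from 10 cells. Gata6 was positive in 28.8% (24% to 33.9%) but never high, with a highest cell at 90.2 TPM. Plet1, which encodes a surface protein of the upper isthmus, was positive in 32.3% (27.4% to 37.6%), and Lgr6, a receptor for R-spondins, in 17.5% (13.6% to 22%). Klk10, a gene for a secreted serine protease of the kallikrein family, was positive in 2.08% (0.839% to 4.23%). By mean TPM the plate ranges of Krt79, Defb6 and Sostdc1 overlapped, as did those of Plet1, Cst6, Lgr6 and Gata6, so no order is given among genes within either set. The Lrig1, Plet1, Gata6 and Klk10 genes overlap genes on the other strand, and since the libraries do not mark strand, reads of the partners cannot be told apart.

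**Figure D1:**
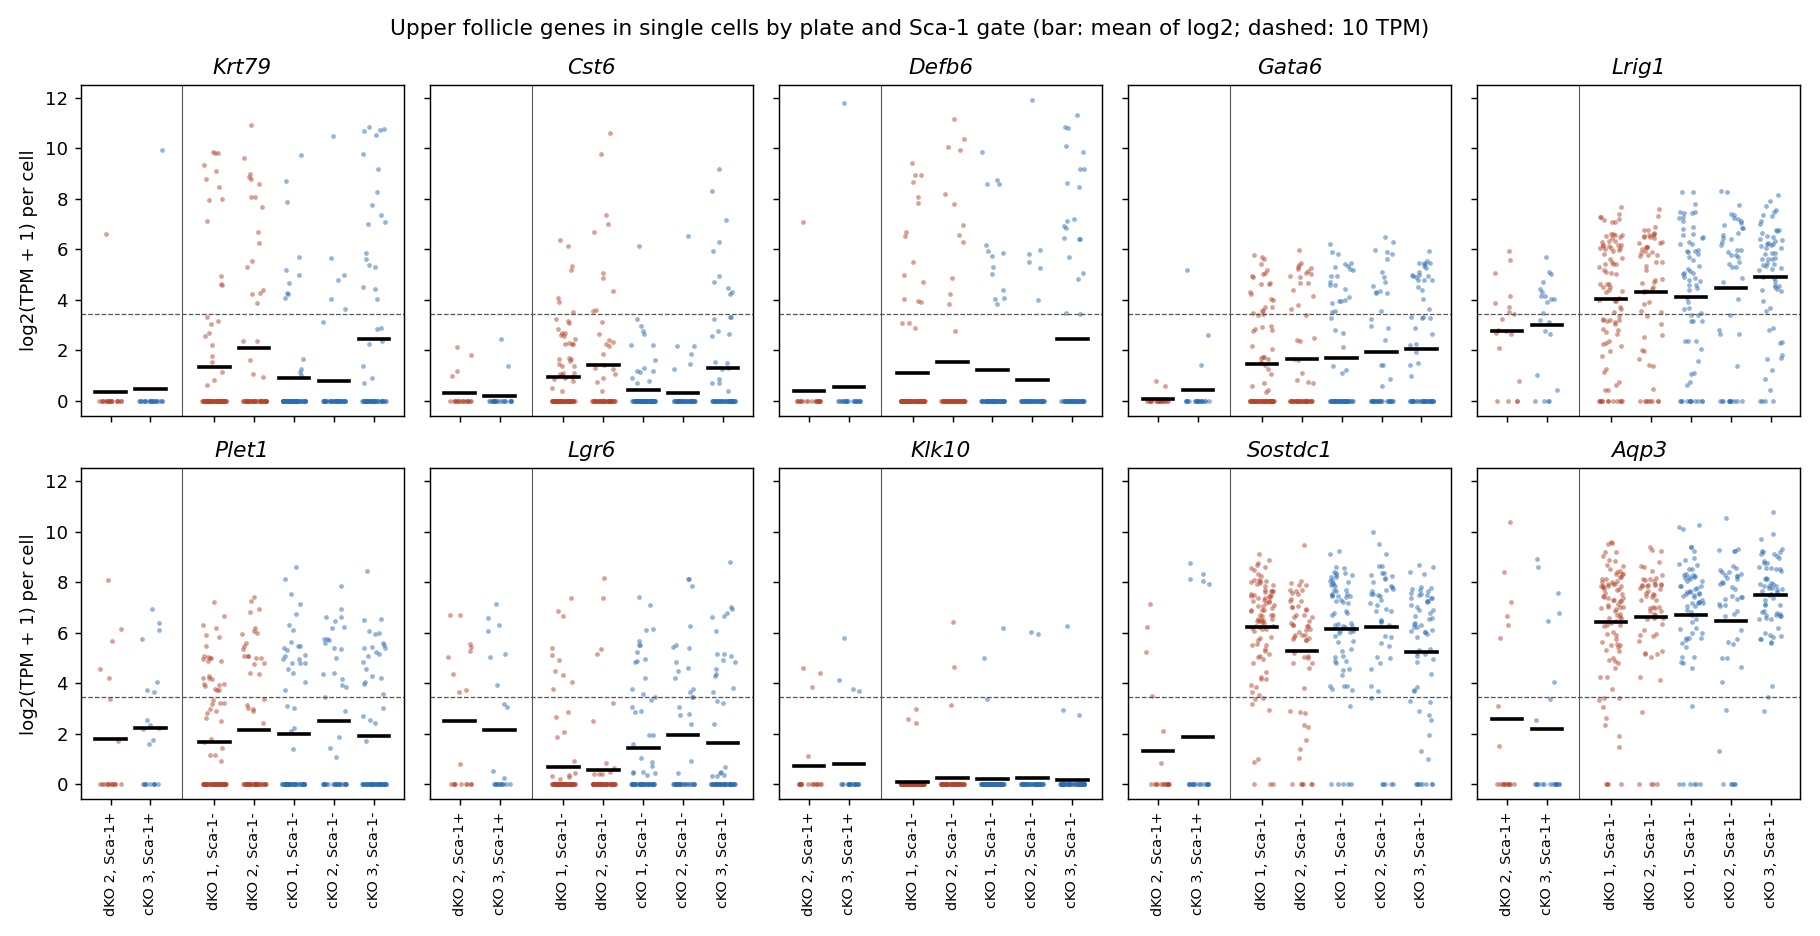
Each point is 1 cell, with log2(TPM + 1) on the vertical axis and plate and Sca-1 gate on the horizontal axis (dKO red, cKO blue); black bars are means of log2 values and the dashed line is 10 TPM. Sostdc1 and Aqp3 fill most Sca-1-negative cells and few Sca-1-positive ones, while Krt79, Cst6 and Defb6 are at 0 in most cells of every group, with few cells above 100 TPM.

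The first comparison asks whether these genes differ with the remaining Nfib allele in Sca-1-negative cells. A gene was called apart when the ratio of mean TPM + 1 was at least 1.5-fold and the plates of the genotypes did not overlap in mean TPM or in mean log2(TPM + 1). Klk10 averaged under 5 TPM and was left out. Of the 9 genes measured, 1 was lower in dKO cells, Lgr6, where 3.95% of all 7060 genes measured were lower. None of the 9 was higher in dKO cells, where 1.77% of all genes were. The median log2 ratio of the 9 genes was -0.48, against -0.12 over all genes.

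Lgr6 averaged 6.14 and 8.93 TPM on the dKO plates and 11.3, 24.3 and 20.6 TPM on the cKO plates. Every dKO plate lay below every cKO plate, and the pooled difference was 2.31-fold (log2 ratio -1.21). Cells positive for Lgr6 made up 10.8% and 6.56% of the dKO plates and 19.7%, 29.8% and 26.2% of the cKO plates. The log2 ratio was -1.40 within the plates with Xist and -1.12 within those with Y-linked RNA, and it lay between -1.47 and -0.99 when any plate was left out. With the highest 5% of cells removed the ratio was larger (-2.22), but the gene then averaged under the 5 TPM needed to count.

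Gata6, Lrig1 and Aqp3 had lower means on every dKO plate than on any cKO plate but did not meet the rule. Gata6 averaged 6.71 and 9.16 TPM on the dKO plates and 9.82, 13.2 and 11.5 TPM on the cKO plates, with no overlap between genotypes, a difference of 1.4-fold that stayed under the rule of 1.5. Lrig1 averaged 40.3 and 44.5 TPM on the dKO plates and 52.5, 68.2 and 60.8 TPM on the cKO plates; the plates overlapped in mean log2. Aqp3 averaged 177.2 and 177.4 TPM on the dKO plates and 226, 226 and 276 TPM on the cKO plates, and also overlapped in mean log2. These 3 differences are in the direction of the median gene and at most 1.42-fold.

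Genes of the infundibulum did not separate by genotype. Krt79 averaged 59.2 and 92.4 TPM on the dKO plates and 23.9, 33.7 and 171.1 TPM on the cKO plates, a log2 ratio of -0.01 in which the cKO plates spanned the dKO plates. Its direction depended on which plates were compared: the log2 ratio was 1.01 within the plates with Xist and -0.88 within those with Y-linked RNA, and without cKO plate 3 it was 1.37. On cKO plate 2 a single cell at 1443.5 TPM gave 91.1% of all Krt79 TPM. Cst6 averaged 3.87 and 48.9 TPM on the dKO plates and 1.57, 2.24 and 20.8 TPM on the cKO plates, and its log2 ratio of 1.57 was -0.92 without dKO plate 2. The value of Cst6 on that plate rested on 1 cell at 1564 TPM, which gave 52.4% of it.

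Defb6 averaged 31.6 and 107.8 TPM on the dKO plates and 35.7, 87.1 and 170 TPM on the cKO plates, and the genotypes overlapped. On cKO plate 2 a single cell at 3878 TPM gave 94.8% of all Defb6 TPM, and the mean without it was 4.66 TPM. Its shares of positive cells were 15.1% and 19.7% on the dKO plates and 19.7%, 12.8% and 30.8% on the cKO plates. Plet1 averaged 10.9 and 20.4 TPM on the dKO plates and 24.7, 25.6 and 18.4 TPM on the cKO plates. Sostdc1 averaged 132.9 and 91.1 TPM on the dKO plates and 141.9, 180 and 95.4 TPM on the cKO plates. For Sostdc1 the plates with Y-linked RNA, dKO plate 2 and cKO plate 3, were lowest in their genotypes, and for Krt79, Cst6 and Defb6 they were highest.

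By the same rule of size, 1 gene was higher and 3 were lower in dKO cells within the plates with Xist, where Krt79 was the higher one and Lgr6, Plet1 and Gata6 the lower ones. Within the plates with Y-linked RNA, Cst6 was higher and 4 genes, Lgr6, Krt79, Defb6 and Aqp3, were lower. With 1 dKO plate on either side the rule is met more easily: 17.6% of all genes were apart within the plates with Xist and 23.5% within those with Y-linked RNA, against 5.72% over all 5 plates. Lgr6 was called lower in both, and Krt79 was called in both but in opposite directions.

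**Figure D2:**
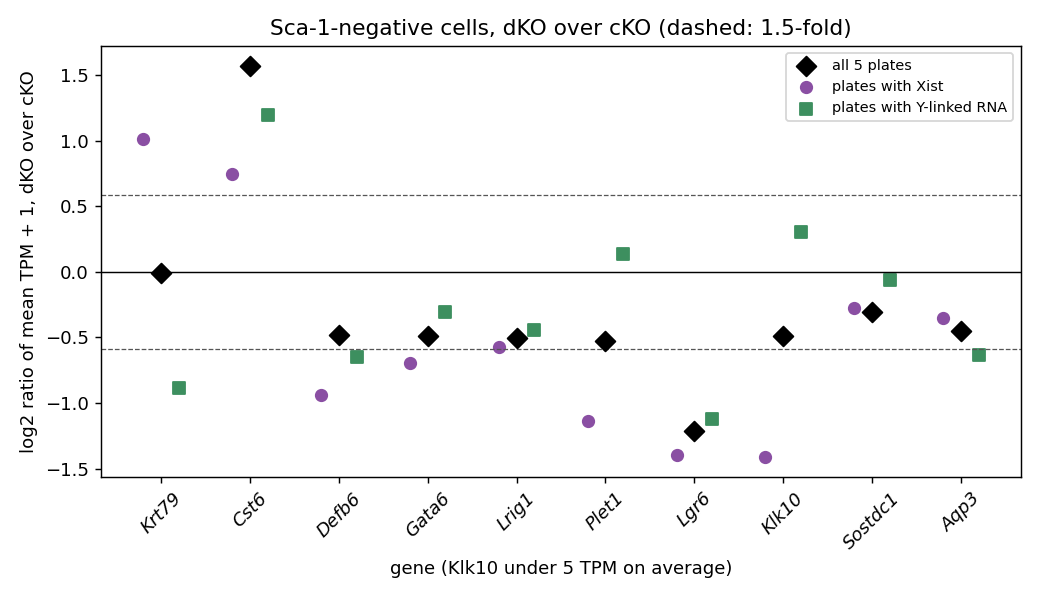
Log2 ratio of mean TPM + 1, dKO over cKO, in Sca-1-negative cells for each gene, over all 5 plates (black diamonds), within plates with Xist (purple circles) and within plates with Y-linked RNA (green squares); dashed lines mark 1.5-fold. Lgr6 is below the line in all 3 comparisons, from -1.40 to -1.12, and Krt79 lies on opposite sides of 0 at 1.01 and -0.88.

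The second comparison sets the Sca-1-positive against the Sca-1-negative gate within a plate. A gene was called apart at a ratio of at least 2-fold provided that mean log2(TPM + 1) also differed by 1 or more. On dKO plate 2, 5 of the 8 genes measured were lower in Sca-1-positive cells (Krt79, Cst6, Lrig1, Defb6 and Sostdc1), where 10.4% of 6534 genes were lower, and 1, Lgr6, was higher, where 4.29% were. On cKO plate 3, 5 of the 9 genes measured were lower in Sca-1-positive cells (Krt79, Cst6, Lrig1, Gata6 and Aqp3), where 5.8% of 6639 genes were lower, and none was higher, where 3% were. Cst6 on both plates and Gata6 on cKO plate 3 were counted as measured through their Sca-1-negative means alone. The median log2 ratio of the measured genes was -2.19 in dKO and -1.90 in cKO, against -0.30 and -0.15 over all genes.

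Lrig1, Krt79 and Cst6 were lower in the Sca-1-positive gate on both plates. Lrig1 averaged 12.5 TPM in Sca-1-positive and 44.5 TPM in Sca-1-negative dKO cells, and 13.5 TPM in Sca-1-positive and 60.8 TPM in Sca-1-negative cKO cells, differences of 3.37-fold and 4.25-fold. It was positive in 46.3% of all 41 Sca-1-positive cells (30.7% to 62.6%). Krt79 was positive in 2 of 41 Sca-1-positive cells, or 4.88% (0.596% to 16.5%). Its means were 5.12 TPM in Sca-1-positive and 92.4 TPM in Sca-1-negative dKO cells, and 45.2 TPM in Sca-1-positive and 171.1 TPM in Sca-1-negative cKO cells, and each Sca-1-positive mean came from a single cell. Cst6 was positive in 0 of 41 Sca-1-positive cells, which allows a share of up to 7.32%.

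Gata6 was positive in 1 of 41 Sca-1-positive cells, or 2.44% (0.0617% to 12.9%). It averaged 0.0653 TPM in Sca-1-positive and 9.16 TPM in Sca-1-negative dKO cells, a 9.54-fold difference of a gene that averaged under the 5 TPM limit there, and 1.91 TPM in Sca-1-positive and 11.5 TPM in Sca-1-negative cKO cells. Sostdc1 was positive in 22% of Sca-1-positive cells (10.6% to 37.6%) and Aqp3 in 29.3% (16.1% to 45.5%), so both genes that filled the Sca-1-negative gate were missing from most Sca-1-positive cells. Sostdc1 averaged 14 TPM in Sca-1-positive and 91.1 TPM in Sca-1-negative dKO cells, and 70 TPM in Sca-1-positive and 95.4 TPM in Sca-1-negative cKO cells. On cKO plate 3 the 5 positive cells had a median of 278 TPM, so the ratio of means was 1.36-fold while mean log2 was lower by 3.35.

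Aqp3 averaged 109.1 TPM in Sca-1-positive and 177.4 TPM in Sca-1-negative dKO cells, where 1 Sca-1-positive cell at 1350 TPM gave 65.1% of the sum and the mean without it was 40.2 TPM. In cKO it averaged 59.1 TPM in Sca-1-positive and 276 TPM in Sca-1-negative cells, a 4.62-fold difference. Defb6 averaged 7.05 TPM in Sca-1-positive and 107.8 TPM in Sca-1-negative dKO cells, a 13.5-fold difference, and 160.7 TPM in Sca-1-positive and 170 TPM in Sca-1-negative cKO cells. On either plate a single cell held all Defb6 of the Sca-1-positive gate. The cKO cell had 3536 TPM of Defb6 together with 995 TPM of Krt79, 51.3 TPM of Lrig1 and 35.3 TPM of Gata6, and it had 0 TPM of Ly6a.

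Lgr6, Plet1 and Klk10 were not called lower on either plate. Lgr6 averaged 21.5 TPM in Sca-1-positive and 8.93 TPM in Sca-1-negative dKO cells, a 2.27-fold difference, and 21.5 TPM in Sca-1-positive and 20.6 TPM in Sca-1-negative cKO cells. It was positive in 39% of Sca-1-positive cells (24.2% to 55.5%) and in 17.5% of Sca-1-negative cells. The higher call on dKO plate 2 did not hold against the Sca-1-negative cells of well rows C and D alone, where the log2 ratio was -0.04; in cKO that comparison gave -0.93, against 0.06 with all Sca-1-negative cells of the plate. Plet1 averaged 23.3 TPM in Sca-1-positive and 20.4 TPM in Sca-1-negative dKO cells, and 17.6 TPM in Sca-1-positive and 18.4 TPM in Sca-1-negative cKO cells, a difference of at most 1.14-fold. These Plet1 values rested on few cells: 1 dKO Sca-1-positive cell at 271 TPM gave 61.3% of its group's sum, and the log2 ratio in dKO was -0.85 with the highest cell of either group removed. Against well rows C and D alone the ratio in cKO was -0.78. Klk10 was positive in 7 of 41 Sca-1-positive cells, or 17.1% (7.15% to 32.1%), and in 7 of 337 Sca-1-negative cells, and it stayed under 5 TPM on average in every group.

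**Figure D3:**
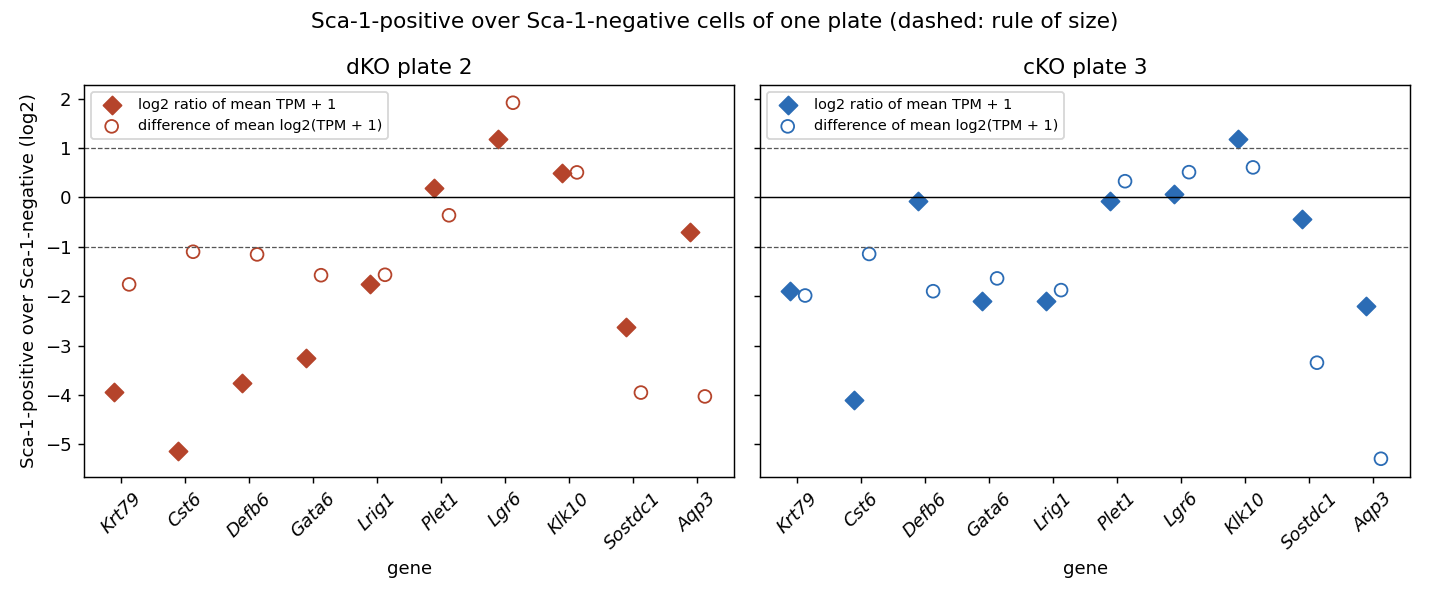
Sca-1-positive over Sca-1-negative cells of dKO plate 2 (left, red) and cKO plate 3 (right, blue) for each gene, as the log2 ratio of mean TPM + 1 (filled diamonds) and the difference of mean log2(TPM + 1) (open circles); dashed lines mark a log2 value of 1 in either direction. Symbols stand apart for Cst6, Defb6, Sostdc1 and Aqp3 on both plates, and for Krt79 and Gata6 on dKO plate 2. Cst6 in dKO cells lies at -5.12 and -1.10, and Defb6 in cKO cells at -0.08 and -1.90.

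Between genotypes within the Sca-1-positive gate none of the 7 genes measured was apart by the same rule, where 3.11% of 5875 genes were higher and 4.17% lower in dKO cells. Lgr6 averaged 21.5 TPM in both dKO and cKO cells and was positive in 47.4% of 19 dKO cells (24.4% to 71.1%) and 31.8% of 22 cKO cells (13.9% to 54.9%). Lrig1 averaged 12.5 TPM in dKO and 13.5 TPM in cKO cells. Krt79 and Defb6 differed in means by 7.55-fold and 20.1-fold, lower in dKO, through 1 cell a group, and their mean log2 values differed by -0.10 and -0.16.

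The third comparison asks how these genes overlap with Cd34 in the Sca-1-negative gate. Cd34 was positive in 91 of 337 Sca-1-negative cells, or 27% (22.3% to 32.1%), and in 0 of 41 Sca-1-positive cells. A gene was counted when its share of positive cells lay on the same side on all 5 plates, and genes positive in at least 10% of cells were measured. Of the 8 genes measured, 6 were less often positive in Cd34-positive cells (Krt79, Lrig1, Plet1, Gata6, Defb6 and Sostdc1), where 13.4% of 8221 genes were. None was more often positive on all 5 plates, where 7.97% of all genes were. Krt79, Gata6 and Defb6 were counted as measured through Cd34-negative cells alone, since under 10% of Cd34-positive cells carried them. Cd34-positive cells had a median of 4785 genes and Cd34-negative cells 5101; the part of this difference in the shares was not tested.

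Krt79 and Cd34 were nearly exclusive at 10 TPM. Krt79 was positive in 2 of 91 Cd34-positive cells, or 2.2% (0.267% to 7.71%), and in 63 of 246 Cd34-negative cells, or 25.6% (20.3% to 31.5%). Both cells with both genes were on dKO plate 2, where the shares were 12.5% of Cd34-positive and 33.3% of Cd34-negative cells. On the other 4 plates Krt79 was positive in no Cd34-positive cell. Cells with neither gene formed the largest class, 54.3% of 337, beside 63 with Krt79 alone, 89 with Cd34 alone and 2 with both. Cells with neither gene were not devoid of upper follicle RNA: 78.7% were positive for Lrig1, 37.2% for Plet1 and 32.8% for Gata6, against 28.1%, 11.2% and 4.49% of cells with Cd34 alone.

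Gata6 and Defb6 were also rare in Cd34-positive cells. Gata6 was positive in 4.40% of Cd34-positive cells (1.21% to 10.9%) and 37.8% of Cd34-negative cells (31.7% to 44.2%), and Defb6 in 3.30% of Cd34-positive cells (0.685% to 9.33%) and 25.6% of Cd34-negative cells (20.3% to 31.5%). Cst6 was positive in 1 of 91 Cd34-positive and 28 of 246 Cd34-negative cells, also lower on all 5 plates, but it fell under the limit of 10% of cells. Plet1 was positive in 12.1% of Cd34-positive cells (6.19% to 20.6%) and 39.8% of Cd34-negative cells (33.7% to 46.3%).

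Lrig1 was shared more between the classes. It was positive in 28.6% of Cd34-positive cells (19.6% to 39%) and 81.7% of Cd34-negative cells (76.3% to 86.3%). By plate its share in Cd34-positive cells was 17.4% and 50% on the dKO plates and 21.7%, 7.69% and 50% on the cKO plates, and in Cd34-negative cells it was 75.7% to 88.2%. Both plates at 50% were those with Y-linked RNA. Sostdc1 was positive in 73.6% of Cd34-positive (63.3% to 82.3%) and 89% of Cd34-negative cells (84.4% to 92.6%); the gap was wide on dKO plate 2, at 37.5% of Cd34-positive and 91.1% of Cd34-negative cells, and narrow on cKO plate 1, at 91.3% of Cd34-positive and 91.7% of Cd34-negative cells.

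Lgr6 and Aqp3 differed from the rest. Lgr6 was positive in 25.3% of Cd34-positive cells (16.7% to 35.5%) and 14.6% of Cd34-negative cells (10.5% to 19.7%). On the cKO plates 21.7%, 38.5% and 62.5% of Cd34-positive cells carried it, against 18.8%, 26.5% and 14.3% of Cd34-negative cells. On the dKO plates the shares were low and close, at 8.70% and 6.25% of Cd34-positive and 11.4% and 6.67% of Cd34-negative cells. The dKO plates had only 10 and 4 Lgr6-positive Sca-1-negative cells in all. The shares rest on 13 to 23 Cd34-positive cells a plate, so no reversal between genotypes is shown, and the difference between genotypes was not tested. Aqp3 was positive in 94.5% of Cd34-positive and 88.6% of Cd34-negative cells, higher on 4 of 5 plates.

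**Figure D4:**
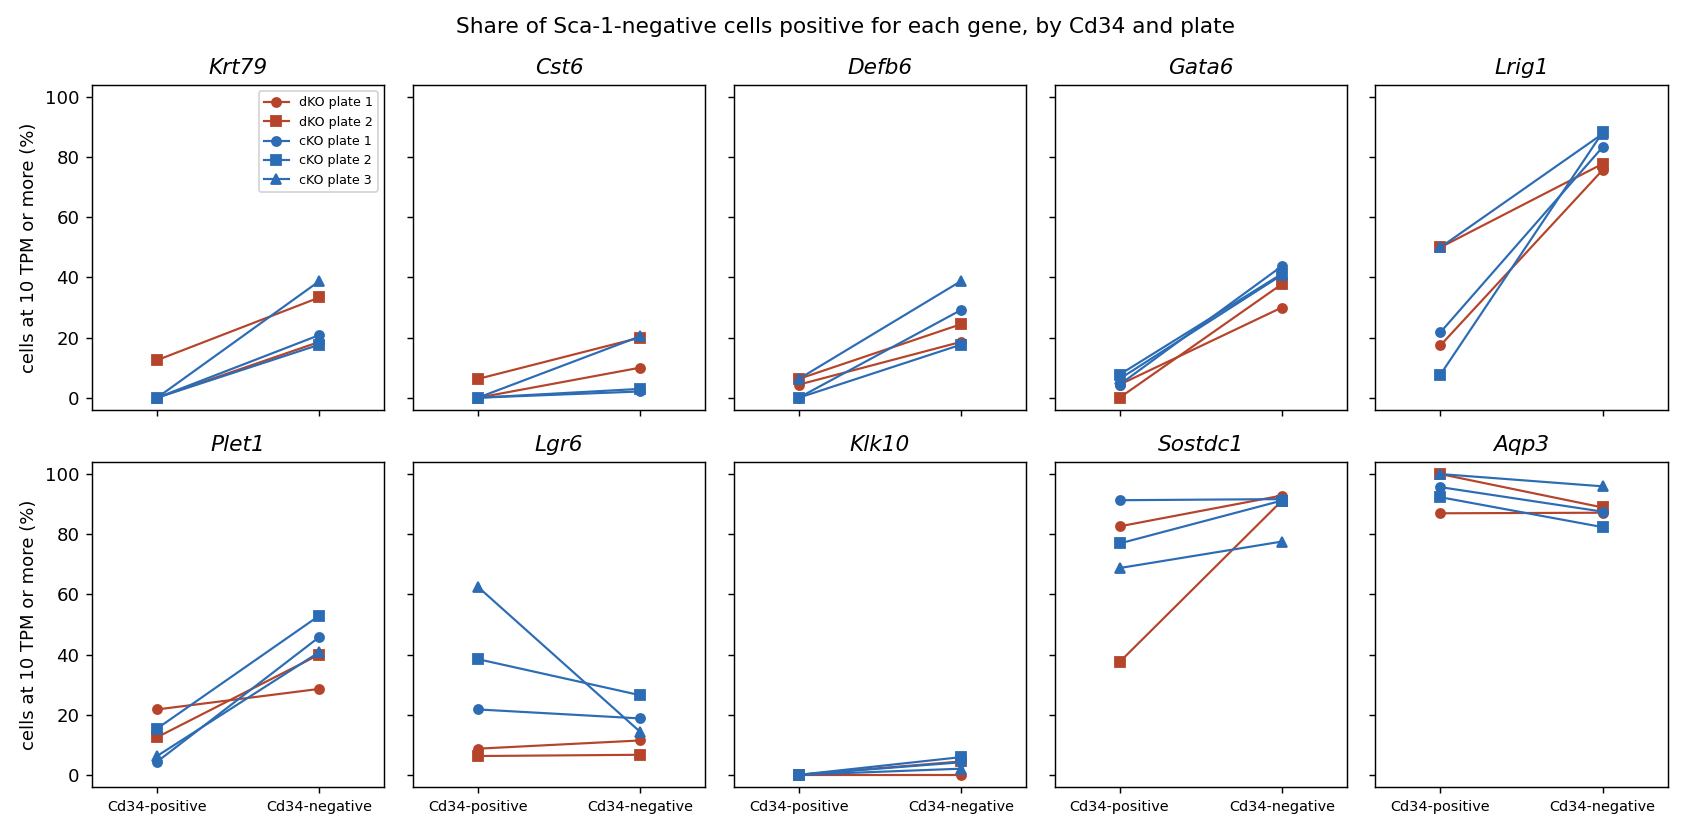
Share of Sca-1-negative cells at 10 TPM or more of each gene (vertical axis, percent) among Cd34-positive (left) and Cd34-negative cells (right); each line is a plate (dKO red, cKO blue, with the plate number by marker). Lines of Krt79, Cst6, Defb6, Gata6, Lrig1, Plet1 and Sostdc1 go up to the right on all 5 plates, while those of Lgr6 and Aqp3 do not.

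Among themselves the genes formed a group of Krt79, Cst6 and Defb6. Over Sca-1-negative cells, Defb6 was positive in 58.5% of the 65 Krt79-positive cells and 10.3% of the Krt79-negative cells, a phi coefficient (the correlation of 2 yes-or-no measures) of 0.48. Cst6 was positive in 33.8% of Krt79-positive and 2.57% of Krt79-negative cells (phi 0.44), and 22 of the 29 Cst6-positive cells carried Defb6 (phi 0.44). Each of these 3 pairs held on all 5 plates, but for the pairs with Cst6, cKO plates 1 and 2 had 1 Cst6-positive cell each. The cells behind a phi coefficient share their plates and differ in genes detected, with a median of 5334 genes in Krt79-positive and 4958 in Krt79-negative cells.

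Gata6 was tied most closely to Lrig1. Of 97 Gata6-positive cells 95, or 97.9%, were also Lrig1-positive, against 55% of Gata6-negative cells (phi 0.41). Gata6 also went with Defb6 (phi 0.36), Cst6 (0.32) and Plet1 (0.29). In 15 of the 45 pairs, the share of cells with the second gene was higher on all 5 plates among cells with the first than among cells without it. The share among pairs of all genes was not computed. For Cst6 and Lgr6 it was lower on all 5 plates, with 0 cells positive for both among 29 Cst6-positive and 59 Lgr6-positive cells. All pairs with Cst6 rest on 1 Cst6-positive cell each on cKO plates 1 and 2. Lgr6 was positive in 7.69% of Krt79-positive and 19.9% of Krt79-negative cells (phi -0.13, lower on 4 of 5 plates).

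Cells with Cst6 carried the most of the other genes, a mean of 5.79 of the other 9 against 3.42 in cells without it. For Defb6 these means were 5.05 and 3.14, and for Krt79 4.72 and 3.22. Lgr6-positive cells had a mean of 3.31 other genes and Lgr6-negative cells 3.58, the reverse of the other 9 genes. At least 3 of the 10 genes were positive in 70.8% of dKO Sca-1-negative cells (62.9% to 77.8%) and 73.2% of cKO Sca-1-negative cells (66.2% to 79.5%). In the Sca-1-positive gate the shares were 42.1% of dKO cells (20.3% to 66.5%) and 31.8% of cKO cells (13.9% to 54.9%). These counts include the widespread genes Aqp3, Sostdc1 and Lrig1. They were positive in 90.2%, 84.9% and 67.4% of Sca-1-negative and in 29.3%, 22% and 46.3% of Sca-1-positive cells. A cell with 3 genes is therefore not shown to be an upper follicle cell. At least 6 genes were positive in 12.3% of dKO and 21.3% of cKO Sca-1-negative cells, by plate 6.45% and 21.3% in dKO and 18.3%, 17% and 27.7% in cKO.

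**Figure D5:**
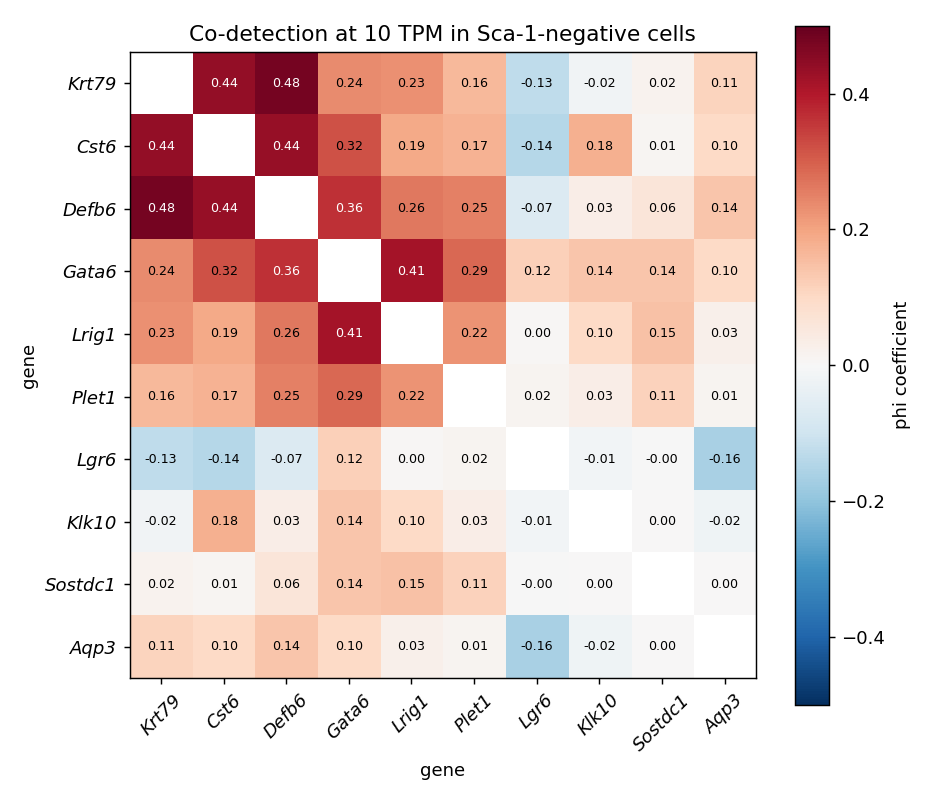
Phi coefficient of co-detection at 10 TPM for each pair of the 10 genes over 337 Sca-1-negative cells (colour and printed value). Krt79, Cst6 and Defb6 form a block at 0.44 to 0.48, Gata6 joins Lrig1 at 0.41, and Lgr6 is the gene with the most values below 0.

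For each gene, those with the most similar pattern were found by Pearson correlation of log2(TPM + 1) over the 337 Sca-1-negative cells after subtraction of plate means, a description across cells that share plates and depth. Only genes positive in at least 10% of cells were searched, which leaves out Cst6 and Klk10 as matches. Among those, Krt79 was most like Notch3, a Notch receptor gene (r = 0.67), and Defb6 (0.64), and Cst6 was most like Defb6 (0.66) and Krt79 (0.65). Lrig1 was most like Apcdd1, a WNT inhibitor gene (0.60), and Ly6d, a Ly6 family surface protein gene (0.59). Gata6 was most like Nebl, which encodes an actin-binding protein (0.53), and Lrig1 (0.52). Lgr6 was most like Sema3e, a semaphorin gene (0.47), and Tgfb3, a TGF-beta ligand gene (0.45).

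Among the genes searched, Defb6 was most like Krt79 and the lipoxygenase gene Alox12e (0.51), and Plet1 was most like Gata6 (0.43) and the sterol hydroxylase gene Cyp27a1 (0.40). Sostdc1 followed the aldehyde dehydrogenase gene Aldh3a1 (0.45) and the lipid carrier gene Apoe (0.38). Aqp3 followed Ahnak2 (0.35) and the chloride channel gene Ano1 (0.30), and the values of Klk10, 0.24 with Psapl1 and 0.21 with Ccdc50, are weak correlations in sparse data. The correlation with Cd34 was -0.55 for Lrig1, -0.41 for Gata6, -0.27 for Krt79 and 0.14 for Lgr6.

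Other genes of the upper follicle were followed as a list of 13. For this and the next lists, these are the shares over all genes. Between genotypes 1.77% were higher and 3.95% lower in dKO Sca-1-negative cells. Between gates 4.29% were higher and 10.4% lower in dKO Sca-1-positive cells, and 3% higher and 5.8% lower in cKO. In Cd34-positive cells 7.97% were more often and 13.4% less often positive. Between genotypes in Sca-1-negative cells 8 were measured, with the keratin gene Krt17 higher in dKO (814 TPM in dKO and 443 TPM in cKO cells) and Aldh3a1 lower (37.9 TPM in dKO and 63.3 TPM in cKO cells). Between gates, 5 of 8 in dKO and 6 of 9 in cKO were lower in Sca-1-positive cells, among them the matrix gene Postn, at 12.2 TPM in Sca-1-positive and 187 TPM in Sca-1-negative dKO cells. The kallikrein gene Klk11, like Klk10 a protease of the epidermis, was higher in both, at 14.3 TPM in Sca-1-positive and 1.41 TPM in Sca-1-negative dKO cells and at 15.8 TPM in Sca-1-positive and 3.51 TPM in Sca-1-negative cKO cells. Fst and Nebl in dKO were counted as measured through their Sca-1-negative means alone, and Klk11 on both plates through its Sca-1-positive mean alone. Between genotypes in the Sca-1-positive gate Aldh3a1 was lower in dKO, 1 of 7 measured, where 4.17% of all genes were lower. In Cd34-positive cells 4 of 8 were less often positive, among them Aldh3a1 (5.49% of Cd34-positive and 60.2% of Cd34-negative cells) and Nebl (14.3% of Cd34-positive and 54.9% of Cd34-negative cells). The 3 more often positive were Postn (95.6% of Cd34-positive and 45.5% of Cd34-negative cells), Dmkn (96.7% and 70.3%) and Gli1 (25.3% and 7.72%). Aldh3a1 and Atp6v1c2, another of the 4, were counted as measured through Cd34-negative cells alone, and Gli1 through Cd34-positive cells alone.

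Of 13 bulge genes, 9 of 11 measured in dKO and 8 of 10 in cKO were lower in Sca-1-positive cells, where 10.4% and 5.8% of all genes were. Most were counted as measured through their Sca-1-negative means alone: Cd34, Lgr5, Cd200, Sox9 and Tbx1 on both plates, Lhx2 in dKO and Tcf7l2 in cKO. Krt15 was not called lower on either plate. It averaged 421 TPM in Sca-1-positive and 284 TPM in Sca-1-negative dKO cells, and 436 and 440 TPM in cKO cells. It was positive in 92.7% of Sca-1-positive and 89.3% of Sca-1-negative cells. In Cd34-positive cells 6 of 10 bulge genes were more often positive, where 7.97% of all genes were. Of these, Lgr5 and Lhx2 were counted as measured through Cd34-positive cells alone, at 5.28% and 7.32% of Cd34-negative cells. Between genotypes Krt15 was lower in dKO, with plate means of 181.5 and 284 TPM in dKO and 515, 742 and 440 TPM in cKO Sca-1-negative cells, and Cd200 was higher, at 42.7 TPM in dKO and 25.3 TPM in cKO cells. Of 12 sebaceous gland genes, 5 were measured and none was apart between genotypes. Mgst1 was lower in Sca-1-positive cells on both plates, in dKO as a gene measured through its Sca-1-negative mean alone. Fasn was less often positive in Cd34-positive cells. Of 8 genes of the interfollicular epidermis and its differentiation, Krtdap, 1 of 6 measured, was higher in dKO (183.9 TPM in dKO and 69.9 TPM in cKO cells), and 3 were less often positive in Cd34-positive cells (Ly6a, Krt1 and Krt10) and 1, Calml3, more often. In the Cd34 comparison Ly6a, Krt1 and Krt10 were counted as measured through Cd34-negative cells alone. Ly6a was higher in the Sca-1-positive gate on both plates, at 124.6 TPM in Sca-1-positive and 26 TPM in Sca-1-negative dKO cells and 68.4 TPM in Sca-1-positive and 19.7 TPM in Sca-1-negative cKO cells. In all, 2 of 6 measured genes of this list were higher in dKO Sca-1-positive cells, Ly6a and the suprabasal keratin gene Krt1 (255 TPM in Sca-1-positive and 36.1 TPM in Sca-1-negative cells), and 2 were lower, Sbsn (18.5 TPM in Sca-1-positive and 48.2 TPM in Sca-1-negative cells) and Calml3 (3.10 TPM in Sca-1-positive and 169.4 TPM in Sca-1-negative cells). In cKO, 1 of 7 was higher, Ly6a, and 1 was lower, Calml3, at 4.26 TPM in Sca-1-positive and 133.3 TPM in Sca-1-negative cells. On both plates Calml3 was counted as measured through its Sca-1-negative mean alone. Ly6a encodes Sca-1, on which the gates were sorted, so its higher call is not a result about this list. RNA of Ly6a was nonetheless positive in 30.3% of Sca-1-negative cells (25.4% to 35.5%).

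Keratinocyte markers were checked by Krt5, a basal keratin gene, which was positive in 100% of Sca-1-positive and 96.7% of Sca-1-negative cells, and Krt14, its keratin partner, positive in 97.6% of Sca-1-positive and 80.4% of Sca-1-negative cells. The follicle stem cell factor Sox9 was positive in 12.2% of Sca-1-positive and 70.3% of Sca-1-negative cells. No cell of any group had 3 or more markers of melanocytes, immune cells, fibroblasts, endothelial and mural cells, Schwann cells or Merkel cells. Summed over a list and averaged over cells, these markers reached at most 32.9 TPM for melanocytes, 33.8 TPM for immune cells, 23.8 TPM for fibroblasts, 20.8 TPM for endothelial and mural cells, 17.6 TPM for Schwann cells and 0.376 TPM for Merkel cells in any group. Single markers did move. Between genotypes Col1a1, a collagen gene of the fibroblast list, averaged 17.8 TPM in dKO and 2.43 TPM in cKO Sca-1-negative cells. It was positive in 37.4% of Cd34-positive and 2.03% of Cd34-negative cells, Mitf of the melanocyte list in 72.5% of Cd34-positive and 17.1% of Cd34-negative cells, and Cspg4 of the mural list in 86.8% of Cd34-positive and 34.6% of Cd34-negative cells. Erbb3 of the Schwann cell list was positive in 28.6% of Cd34-positive and 53.7% of Cd34-negative cells. In that comparison Col1a1 was counted as measured through Cd34-positive cells alone. In the Sca-1-positive gate Cspg4 was lower on both plates, and Mitf and Col1a1 were lower on dKO plate 2. All were counted there as measured through their Sca-1-negative means alone. The part of these markers in the results above was not tested.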

How the data were processed

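Single cells were amplified by Smart-seq2, tagmented with Nextera XT and read from both ends on a NextSeq sequencer, according to the labels' protocols; the libraries carry no molecular identifiers and do not mark strand. The authors deposited TPM, the length-normalised share of each gene scaled to a fixed total, in 1 table; its 46609 rows include 92 ERCC spike-in RNAs, and every column sums to the same total. Bowtie2 2.2.9 and RSEM 1.2.30 with the mm10 (GRCm38) build are named in the submitters' processing notes; which gene annotation went with them is not given in the sources. TPM keeps no read depth, so genes detected at 1 TPM stand in for it. The row Rn18s-rs5 took 55.3% to 61.5% of TPM by plate and gate, which scales all other genes.

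The number in a cell's title was read as its plate. Plate means were averaged with equal weight, and 1 TPM was added before ratios, so differences of low genes are understated. A mean of 5 TPM over the groups compared was required of a measured gene. Shares carry exact (Clopper-Pearson) 95% intervals, and for a share of 0 the limit given is 3 cells of the total. The labels name no animal. Xist and Y-linked RNA separate the plates of each genotype into 2 kinds, so a genotype holds more than 1 animal, but their number and the plates of each are not known; plates were therefore not used as replicates, and no test was run. No doublet caller was run on these singly sorted cells, and no column was identical to another. The scripts were tested on simulated data.

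All 10 genes are named, with the 2 genes most like each among genes positive in at least 10% of cells (predicted genes left out). Genes past the rule are named in part or in full for the other upper follicle, sebaceous gland, bulge, and interfollicular epidermis and differentiation lists. The same holds for the markers of melanocytes, immune cells, fibroblasts, endothelial and mural cells, Schwann cells and Merkel cells. Members and lists were chosen with earlier results of these data known. Alternatives changed the pseudocount, the filters on cells and genes, the scaling, the ratio, the threshold for a positive cell, the cells compared and the plates. Python 3.11.15, numpy 2.4.6, pandas 2.3.3 and scipy 1.17.1 were used.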

Additional observations from a re-analysis of the deposited data

Results flagged for a closer look

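Krt79 moved in opposite directions between genotypes in the 2 kinds of plate. Within the plates with Xist its log2 ratio of dKO over cKO was 1.01, where dKO plate 1 had 59.2 TPM and cKO plates 1 and 2 had 23.9 and 33.7 TPM. Within the plates with Y-linked RNA it was -0.88, where dKO plate 2 had 92.4 TPM and cKO plate 3 had 171.1 TPM. The difference between the 2 ratios was not tested, and plate, kind and animal cannot be told apart here.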

How the results depend on the processing

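No paired analysis was possible because plate numbers pair nothing between genotypes, and the gates, compared within a plate, share 1 plate a genotype. The limits are unknown animals behind the plates, unknown read depth, 19 and 22 Sca-1-positive cells, and means of sparse genes set by single cells. Genotype counts in Sca-1-negative cells (0 genes higher and 1 lower in dKO) lay between 0 and 2 higher and between 1 and 3 lower when a plate was left out: 2 were higher without cKO plate 3 and 1 without dKO plate 1, and 2 were lower without cKO plate 1 and 3 without dKO plate 2. With fewer plates the rule is met more easily: over all genes 10.5%, 15.4%, 9.46% and 12.4% were apart without these 4 plates in that order, against 5.72% with all. Within the plates with Xist 1 was higher and 3 lower, and within those with Y-linked RNA 1 was higher and 4 lower, where 17.6% and 23.5% of all genes were apart. With the highest 5% of cells removed 0 were lower. Between gates (5 genes lower on either plate), 3 were lower in dKO and 3 in cKO against the Sca-1-negative cells of all plates, and with a pseudocount of 10 TPM 2 were lower in dKO and 3 in cKO. The 1 gene higher in dKO Sca-1-positive cells, Lgr6, gave 0 with that pseudocount and 0 against well rows C and D alone, where its log2 ratio reversed to -0.036. With the highest cell of each gene and group removed, an alternative chosen after seeing the data, 6 genes were lower on either plate. Genes less often positive in Cd34-positive cells numbered 6, and 6 to 7 with a plate left out; genes more often positive numbered 0, and 0 to 1 with a plate left out (1 without dKO plate 1) or 1 with no filter on cells. With a plate left out the Cd34 rule is also met more easily. Shares over all genes under these gate and Cd34 alternatives are not given, so these counts do not show how stable the results are. The share of cells with at least 3 genes moved with the threshold. In dKO Sca-1-negative cells it was 89% at 1 TPM, 79.9% at 5 TPM, 52.6% at 30 TPM and 84.4% with the ERCC and the 5 most abundant rows removed, and 90.9% carried at least 2 and 42.9% at least 4 genes. In cKO Sca-1-negative cells these values were 87.4%, 80.3%, 58.5%, 84.7%, 94.5% and 51.9%. In Sca-1-positive cells the share at 30 TPM was 15.8% in dKO and 13.6% in cKO, and 10.5% in dKO and 9.09% in cKO carried at least 4 genes. The causes were not tested. Ratios not called apart could change sign too: the Defb6 log2 ratio between genotypes, -0.48 with all plates, became 0.18 when cKO plate 3 was omitted and 0.14 when dKO plate 1 was.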

Other observations

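Within the Sca-1-negative gate, cells with Ly6a RNA (at 10 TPM or more) were set against the 235 cells without it. The share positive differed in the same direction on all 5 plates for 3 of the 10 genes, Lrig1, Lgr6 and Cst6. How many of all genes did so was not computed, so this count says nothing about the 10 genes as a set. Lrig1 was positive in 84.3% of Ly6a-positive cells (exact 95% interval 75.8% to 90.8%) and 60% of Ly6a-negative cells (53.4% to 66.3%), higher on all 5 plates. Lgr6 was positive in 7.84% of Ly6a-positive cells (3.45% to 14.9%) and 21.7% of Ly6a-negative cells (16.6% to 27.5%), lower on all 5 plates. Cst6 was positive in 5.88% of Ly6a-positive (2.19% to 12.4%) and 9.79% of Ly6a-negative cells (6.31% to 14.3%). These intervals overlap, and cKO plates 1 and 2 had 1 Cst6-positive cell each. Shares of Gata6 (31.4% of Ly6a-positive and 27.7% of Ly6a-negative cells), Defb6 (18.6% and 20%) and Aqp3 (88.2% and 91.1%) were close. Ly6a-positive cells had a median of 5173.5 genes and Ly6a-negative cells 4957; the part of this in the shares was not tested. Cd34 was positive in 0.98% of Ly6a-positive and 38.3% of Ly6a-negative cells. In the same gate Lrig1 was positive in 28.6% of Cd34-positive and 81.7% of Cd34-negative cells, Lgr6 in 25.3% and 14.6%, and Cst6 in 1.10% and 11.4%. The part of Cd34 in the differences by Ly6a was not tested. In the Sca-1-positive gate all 16 Lgr6-positive cells were among the 35 Ly6a-positive cells, and 0 of 6 Ly6a-negative cells carried it, a number that allows a share of up to 50%, above the 45.7% of Ly6a-positive cells, so no difference is shown. Both Sca-1-positive cells with Krt79 and Defb6 were among those 6 Ly6a-negative cells. No difference here was tested.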
